A study of Mus musculus with 7 samples.

Results

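Fos binding in mouse hippocampus was examined around 7 genes that mark granule cells of the dentate gyrus, namely Prox1, Neurod1, Calb1, Dsp, Stxbp6, C1ql2 and C1ql3. They are 7 of the 21883 protein-coding genes of the RefSeq gene table of the build GRCm38.p6. For each gene, every deposited chromatin immunoprecipitation (ChIP-seq) peak that touched the gene span or the 50 kb on either side of it was collected. The rule for collecting peaks uses only position. The 7 windows do not overlap and together cover 1064 kb. All animals were wild-type C57BL/6J mice, 2 months of age. One group was given saline. The other received kainic acid, a glutamate receptor agonist, as 2 intraperitoneal injections of 10 mg/kg, 30 min apart, and hippocampi of mice with seizures of level 4 were taken 1 hour after the first injection. Each group had 3 libraries made with an anti-Fos antibody, and a single input library without antibody completed the series and is not analysed here. The labels do not say whether a library is 1 animal or a pool, so the spread between libraries may be technical. Whole hippocampus was used, so the number of granule cells and the binding per cell cannot be told apart, and peak lists hold no expression values with which to check the tissue.

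Granule cells are the principal neurons of the dentate gyrus. Their axons, the mossy fibres, contact CA3 pyramidal cells, and their dendrites receive input from the entorhinal cortex. Fos is a subunit of the transcription factor AP-1. It pairs with a Jun protein, is made within an hour of strong neuronal activity, and binds mostly at enhancers, at the sequence TGACTCA or its reverse complement TGAGTCA. Prox1 is the homeobox factor that specifies and maintains granule cell identity, and Neurod1 is a basic helix-loop-helix factor needed for granule neurons to form. Calb1 encodes the calcium-binding protein calbindin, and Dsp encodes desmoplakin, a protein of desmosomes. Stxbp6 encodes amisyn, which binds SNARE proteins of vesicle fusion. C1ql2 and C1ql3 encode secreted C1q-like proteins that mossy fibres release at their synapses, where they gather kainate receptors.

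Of the 6 genes with a transcript start in the promoter table, only C1ql2 had a region called in more than 1 kainic acid list across that listed start. The listed start of Stxbp6 lies inside its gene span. A region of kainic acid replicates 1 and 2 crossed the 5′ end of that span, with its summit 0.626 kb upstream of the listed start. The C1ql2 sequence is shown beside that of its relative C1ql3, which had no peak in the same stretch. The sequences are the 250 bases before the start, 5′ to 3′ in the direction of transcription, from RefSeq (GRCm38.p6), with capitals for bases under a kainic acid peak:

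C1ql2, plus strand, chr1:120340332-120340581: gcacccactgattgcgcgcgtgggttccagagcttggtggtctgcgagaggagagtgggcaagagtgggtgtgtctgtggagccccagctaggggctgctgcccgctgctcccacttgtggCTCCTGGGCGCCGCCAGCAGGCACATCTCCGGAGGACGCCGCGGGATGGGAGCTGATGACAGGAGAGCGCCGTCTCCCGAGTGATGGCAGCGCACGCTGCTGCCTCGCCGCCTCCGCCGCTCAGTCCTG

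C1ql3, minus strand, chr2:13010865-13011114: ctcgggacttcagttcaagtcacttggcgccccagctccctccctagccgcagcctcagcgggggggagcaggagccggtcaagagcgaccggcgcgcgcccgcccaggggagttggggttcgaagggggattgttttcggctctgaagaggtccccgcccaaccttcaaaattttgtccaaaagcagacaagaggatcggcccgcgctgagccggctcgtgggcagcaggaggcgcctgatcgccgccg

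In C1ql2, 129 of the 250 bases lay under a peak of at least 1 of 2 kainic acid lists. In C1ql3 it was 0 bases. The C1ql2 summits of replicates 2 and 3 lay 0.0910 and 0.344 kb downstream of the start, outside the bases shown and outside the 300-base entry. The capitals are thus the upstream edge of these peaks, and the sequence under the summits was not searched for motifs. Both stretches are rich in G and C (68.8% and 66.4%, against a median of 52.4% over all promoter entries). Neither AP-1 motif form, TGACTCA on one strand or TGAGTCA on the other, occurred in any of the 7 promoter entries of 300 bases found for 6 of the genes. The related motif TGACGTCA, which reads the same on both strands, was also in 0 of 7. Of all 32851 entries, 5.20% held the first motif and 1.79% the second, so few matches could have been present among 7. Calb1 had no promoter entry.

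The lists as a whole differed in length. The kainic acid lists of replicates 1, 2 and 3 held 15009, 63197 and 29650 peaks, and the saline lists held 7, 3277 and 2. The list of kainic acid replicate 2 is the longest and stands apart in the counts below, so results are given without it where it decides them. The lists carry no read totals. A peak missing from a list was not called there, which does not show that the site was unbound.

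The first comparison asks whether more Fos peaks were called near the granule cell genes after kainic acid. Kainic acid replicates 1, 2 and 3 had 16, 59 and 25 peaks in the 7 windows. Saline replicates 1, 2 and 3 had 0, 1 and 0. Every kainic acid library was thus above every saline library, and the groups did not overlap. On a log10(number of peaks + 1) scale, kainic acid libraries averaged 1.47 ± 0.279 (SD, n = 3) and saline libraries 0.100 ± 0.174 (SD, n = 3). Their difference was 1.37, with p = 0.1 in a two-sided exact permutation test over 20 assignments. A lower p is out of reach with 3 libraries on each side.

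A peak of kainic acid replicate 1 was present at 3 of the 7 genes (46.3% of protein-coding genes), of replicate 2 at all 7 (77.4%) and of replicate 3 at 5 (63.3%). Saline replicate 1 had a peak at 0 of 7 (0.0320%), replicate 2 at 1 of 7 (30.2%) and replicate 3 at 0 of 7 (0%). These counts over 7 genes lie near the shares over all genes.

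The counts were then set against the lengths of the lists. As a share of its own list, the windows held 0.107% of the peaks of kainic acid replicate 1 (95% Clopper-Pearson interval 0.0609 to 0.173). The share was 0.0934% (0.0711 to 0.120) in replicate 2 and 0.0843% (0.0546 to 0.124) in replicate 3. In saline replicate 2 it was 0.0305% (7.73e-04 to 0.170), an interval that contains all 3 kainic acid shares. At the mean kainic acid share, saline replicate 2 would have had 3.11 peaks there. Saline replicates 1 and 3 had 0 of 7 and 0 of 2 peaks, with upper bounds of 41.0% and 84.2% in the same interval. A lower share in saline was therefore not detectable at these list lengths. Intervals cover counting error only.

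**Figure D1:**
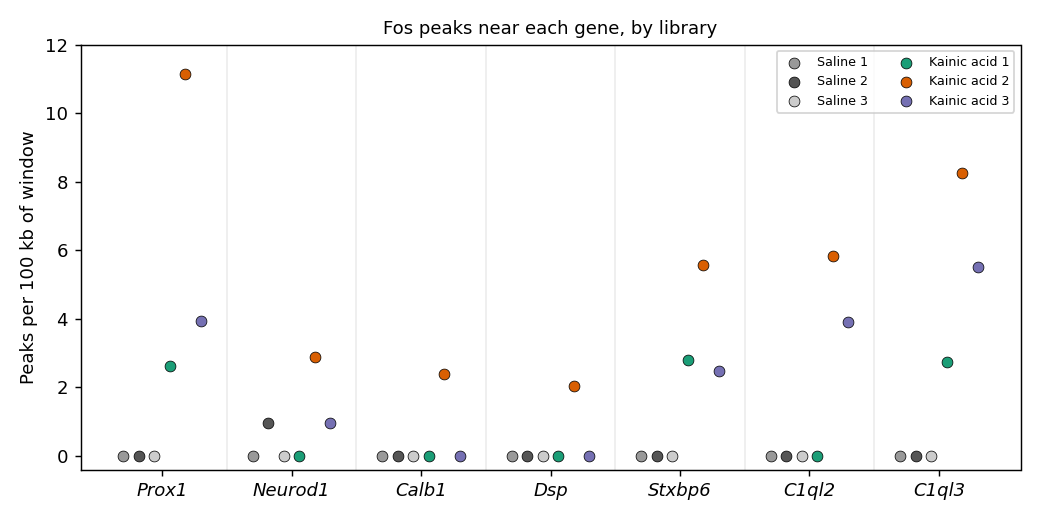
Peaks per 100 kb of window (vertical axis) for each of the 7 genes, with 1 point per library and saline in grey. Kainic acid replicate 2 is the highest point at every gene, from 2.04 at Dsp to 11.1 at Prox1, and the only saline point above 0 is replicate 2 at Neurod1.

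Gene by gene, 3 of the 7, Prox1, Stxbp6 and C1ql3, had more peaks in every kainic acid library than in any saline library. The same held for 33.5% of all protein-coding genes, so 3 of 7 is close to the background. 

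Overlapping peaks (1 bp or more) of the 6 lists were joined into regions. The windows held 63 regions with a kainic acid peak. Support came from 3 lists for 10 of them, from 2 lists for 14 and from 1 list for 39. Those with 2 or 3 lists, called kainic acid regions here, numbered 24, or 38.1% of the 63, close to the 40.3% for the whole series. Those in all 3 lists were 15.9%, against 17.9%. Kainic acid replicate 2 took part in all 24, and 34 of the 39 regions in 1 list were its own. Without replicate 2 the windows had 10 kainic acid regions, and without replicate 3 they had 14. None of the 24 had a saline peak, so the share without one was 100% (85.8 to 100). In the whole series 2.01% of kainic acid regions had a saline peak, so 0 of 24 is near the background.

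The kainic acid regions were spread unevenly over the genes. At least 1 was found at 5 of the 7 genes, against 62.7% of all protein-coding genes, and 3 of 7 had 1 in all 3 lists, against 42.5%. Leaving out kainic acid replicate 2 or replicate 3 gave 3 of 7 genes in each case, where 42.6% and 45.1% of all protein-coding genes had a region. Stxbp6 had 9 regions, Prox1 had 8, C1ql3 had 4, C1ql2 had 2, Neurod1 had 1, and Calb1 and Dsp had 0. Put per 100 kb of window, the order was Prox1 (5.24), C1ql3 (3.67), Stxbp6 (2.79), C1ql2 (1.95), Neurod1 (0.962), then Calb1 and Dsp. In peaks per 100 kb the first 4 genes of this order changed places between kainic acid libraries. Prox1 was below C1ql3 in replicates 1 and 3, C1ql3 was below Stxbp6 in replicate 1, and Stxbp6 was below C1ql2 in replicates 2 and 3. C1ql2 was above Neurod1 in replicates 2 and 3 and both were at 0 in replicate 1. The summits of 15 regions lay inside the span of their gene and 9 outside it. The gene table lists no exons, so exonic and intronic positions are not separated. Only 2 regions had their summit within 1 kb of a listed transcript start, those of C1ql2 and Stxbp6.

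**Figure D2:**
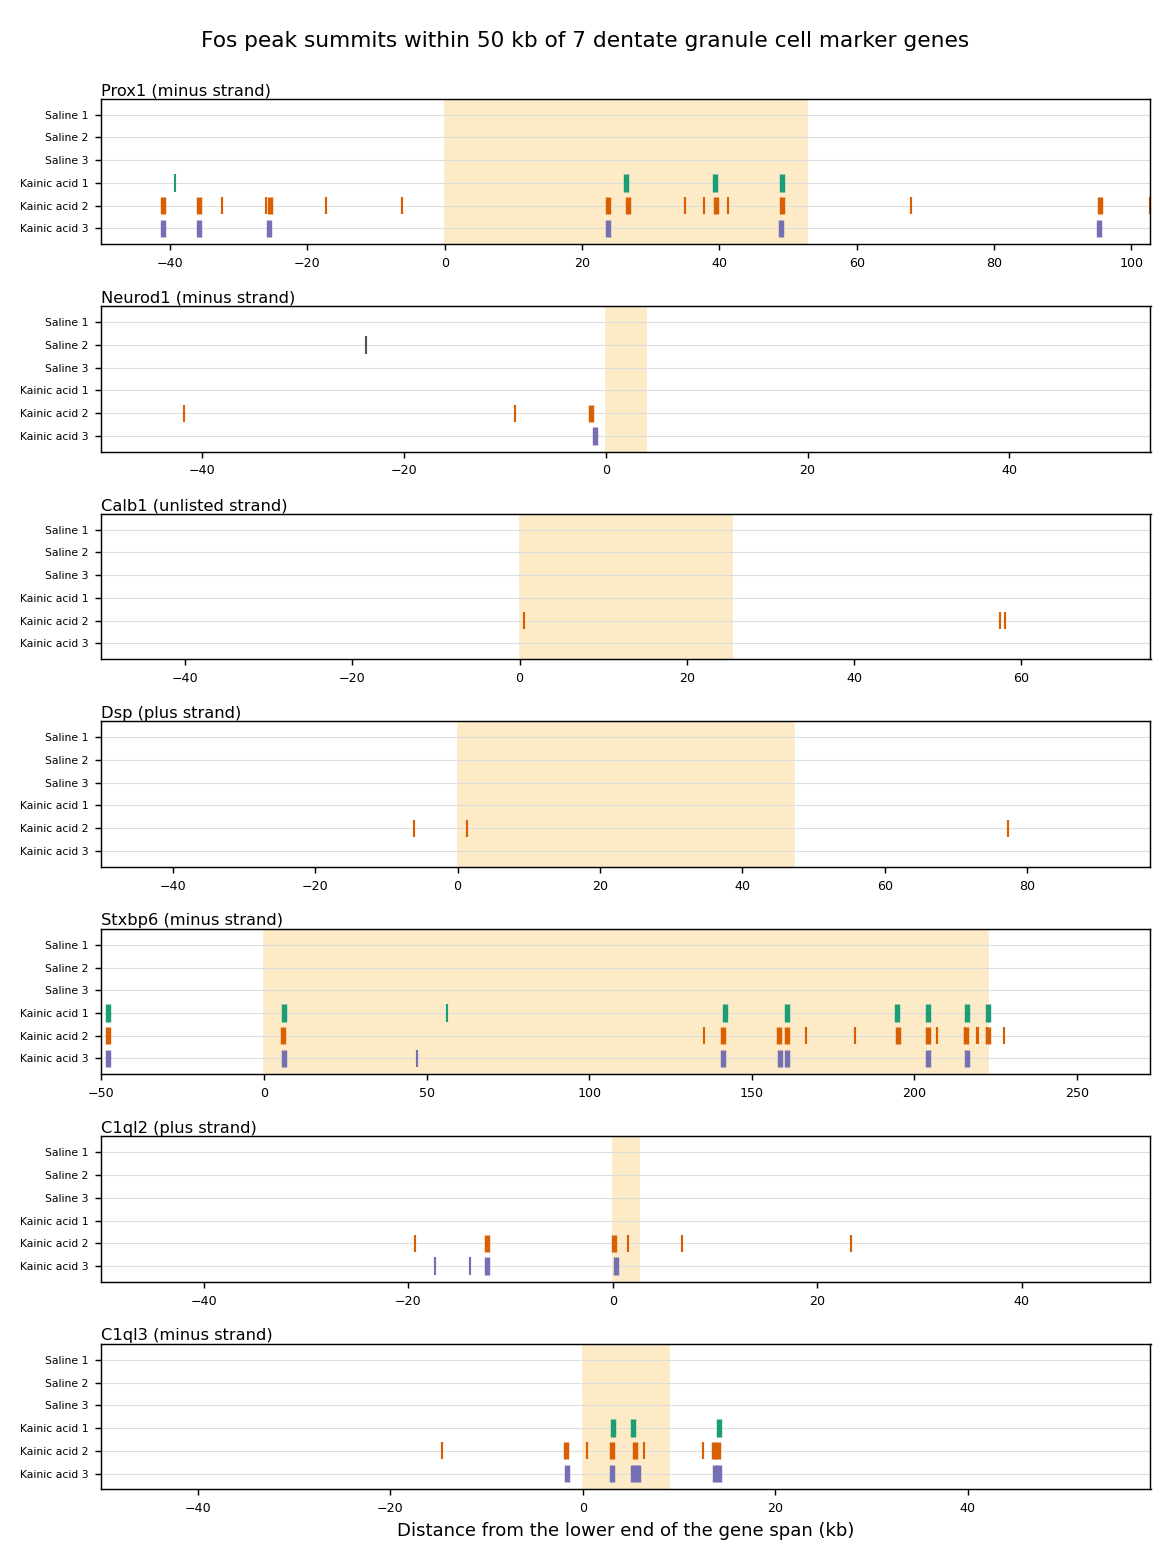
Peak summits in each of the 6 lists along the 7 windows, with distance from the lower end of the gene span in kb on the horizontal axis and the span shaded. Thick marks belong to regions in at least 2 kainic acid lists and thin marks to other regions. Stxbp6 and Prox1 carry 9 and 8 such regions, while Calb1 and Dsp have thin marks of kainic acid replicate 2 only.

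Of the transcription factor genes, Prox1 (chr1:190118035-190170827, minus strand) had the most crowded window. Kainic acid replicates 1, 2 and 3 had 4, 17 and 6 peaks there, and the saline lists had 0 each. Replicate 2 was far above the other kainic acid lists, and all 3 were above saline. Of the 8 regions, 4 lay inside the gene and 4 outside. A single region was in all 3 lists, at chr1:190166889-190167533, 2.32 kb downstream of the nearest listed start. Its fold over the local background was 4.10, 5.82 and 3.27 in replicates 1, 2 and 3, values given by the authors for each peak within its list. To place such folds, each peak was ranked in its list as a percentile, where 0 is the highest fold. This region stood at 59.9, 25.4 and 81.0, so its percentile varied widely between lists. The lists held 15009, 63197 and 29650 peaks, so the same percentile is a different rank in each.

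The region of best mean rank near Prox1 lay at chr1:190082021-190082432, 35.8 kb past the 3′ end of the gene. It had a fold of 9.14 with 38 reads over the summit in replicate 2 and 4.52 with 25 reads in replicate 3. Replicate 1 had no peak there. The percentiles were 7.20 and 35.0. A neighbouring region at chr1:190076510-190077238 had folds of 7.02 and 4.77 in the same 2 lists. Of the 7 Prox1 regions in exactly 2 lists, 5 came from replicates 2 and 3 and 2 from replicates 1 and 2. The count near Prox1 thus rested on replicate 2. It was 1 without replicate 2, 3 without replicate 3 and 6 without replicate 1.

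Neurod1 (chr2:79452637-79456636, minus strand) had 0, 3 and 1 peaks in kainic acid replicates 1, 2 and 3, and 0, 1 and 0 in the saline lists. The groups overlapped at this gene. Its only kainic acid region, chr2:79451072-79451724, lay just past the 3′ end, with folds of 3.11 and 3.29 in replicates 2 and 3. Those peaks stood at percentiles 91.8 and 80.3, near the bottom of their lists, and the region was lost without either of these replicates. The saline peak, at chr2:79428792-79429021, had a fold of 3.89 with 14 reads over its summit and overlapped no kainic acid peak. It lay inside the neighbouring gene Cerkl, as did 1 of the 3 peaks of replicate 2.

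Calbindin and desmoplakin are widely used to label mature granule cells, and neither gene had a kainic acid region. Calb1 (chr4:15881264-15906709) had 0, 3 and 0 peaks in kainic acid replicates 1, 2 and 3, and 0 in each saline list. The peak inside Calb1, at chr4:15881658-15882333, had a fold of 2.36 and stood at percentile 99.5 of its list. The other 2 peaks lay inside the neighbouring gene Decr1. Dsp (chr13:38151294-38198577, plus strand) also had 0, 3 and 0 peaks, and 0 in each saline list. Its best peak, at chr13:38152426-38153004, 1.33 kb downstream of the listed start, had a fold of 4.51 and 26 reads over the summit. Single-list peaks of this kind have no replicate support. The nearest kainic acid region was 106.1 kb from Calb1, at the gene Osgin2, and 113.0 kb from Dsp, at the gene Riok1, and both of those were in all 3 lists. At 100 kb both genes still had 0 regions. Among all protein-coding genes, 37.3% likewise had 0 within 50 kb.

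Stxbp6 (chr12:44852484-45075118, minus strand), the longest of the 7 genes, had the most regions in all 3 lists. Kainic acid replicates 1, 2 and 3 had 9, 18 and 8 peaks, and the saline lists had 0 each. Of its 9 regions, 8 lay inside the gene and 6 were in all 3 lists, out of the 10 such regions over the 7 genes. The count held better than at Prox1. It was 7, 6 and 8 without kainic acid replicates 1, 2 and 3. At C1ql3, where 3 of 4 regions were in all 3 lists, the count was 4, 3 and 3.

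A site inside Stxbp6, at chr12:45056229-45057337, 17.8 kb downstream of the listed start, was the strongest near any of the 7 genes. Its fold was 11.0, 17.1 and 9.62 in replicates 1, 2 and 3, with 50, 69 and 53 reads over the summit. The percentiles were 1.14, 0.731 and 2.14, so it ranked near the top of every kainic acid list. The summits of the 3 lists lay within 47 bp of each other. Of the 26862 kainic acid regions of the series, 239 had a lower mean percentile. In the other Stxbp6 regions of all 3 lists the kainic acid summits spread over 66 to 674 bp. In those of C1ql3 they spread over 120 to 519 bp.

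Other Stxbp6 regions were weaker and less even between lists. The region of next best mean rank, chr12:45012715-45013552, had folds of 5.60, 8.12 and 4.65 at percentiles 20.6, 10.2 and 31.8. The regions chr12:44858110-44859058 (folds 4.22, 9.18 and 5.22) and chr12:44993012-44994314 (3.52, 7.32 and 4.75) ranked best in replicate 2. A region at chr12:45068276-45069009, 5.69 kb downstream of the start, had folds of 4.30, 4.49 and 6.28 and ranked best within its list in replicate 3. At the start end of the gene, chr12:45074915-45075441 had folds of 4.27 and 6.02 in replicates 1 and 2 and no peak in replicate 3. The only Stxbp6 region outside the span, chr12:44804331-44804883, lay 47.6 kb from it and was the outermost region inside the 50 kb limit. It was in all 3 lists with a mean percentile of 38.5. The first region beyond the limit at any of the genes was chr2:79510978-79511651, 54.3 kb from Neurod1, in 2 lists with a mean percentile of 56.8.

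The C1q-like genes differed in the support of their regions. C1ql3 (chr2:13001887-13010864, minus strand) had 3, 9 and 6 peaks in kainic acid replicates 1, 2 and 3, and 0 in each saline list. It is a short gene with 4 regions, 3 of them in all 3 lists. Of those, chr2:13004782-13005273 and chr2:13006905-13007694 lay inside the gene, with folds of 4.13, 5.09 and 3.66 and of 3.36, 4.41 and 3.88. The third, chr2:13015387-13016321, lay upstream of the start, with highest folds of 4.89, 4.05 and 3.77. The replicate 1 peak, with its summit 5.13 kb upstream, did not overlap the other 2 of these peaks. Further peaks of replicates 2 and 3 that did overlap it had folds of 3.49 and 3.38. All of these folds lay between 3.36 and 5.09, and the best percentile among them was 34.3, in replicate 1. The C1ql3 region of best mean rank, chr2:13000027-13000335, was in replicates 2 and 3 (folds 6.29 and 4.33) and lay inside the neighbouring gene Pter.

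C1ql2 (chr1:120340582-120343174, plus strand) had 0, 6 and 4 peaks in kainic acid replicates 1, 2 and 3, and 0 in each saline list. Replicate 1 thus had the same count as saline at this gene. The region across the start shown above, chr1:120340453-120341124, had a fold of 5.13 with 18 reads over the summit in replicate 2 and 3.97 with 19 reads in replicate 3. The second region, chr1:120328093-120328730, lay 12.3 kb upstream, with folds of 5.40 and 4.17 in the same lists. The summits there were 37 bp apart, against 253 bp at the start. Both C1ql2 regions were lost without replicate 2 or without replicate 3.

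Set against their whole lists, peaks near the granule cell genes ranked at or somewhat below the middle. Their median percentile was 57.4, 55.9 and 50.9 in kainic acid replicates 1, 2 and 3, where 50 is the middle of a list. In the top 25% of their lists were 2 of 16, 11 of 59 and 4 of 25 peaks. The median number of reads over the summit was 20, 18 and 23, and the lowest was 15, 11 and 16. For the 24 regions the median of the mean percentile was 40.3, against 42.2 for all kainic acid regions of the series. The Stxbp6 site at 17.8 kb was the 1 region of 24 with a mean percentile under 10, where 7.72% of all kainic acid regions had one. A mean percentile under 25 was found in 4 of 24, against 24.6% of all kainic acid regions.

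**Figure D3:**
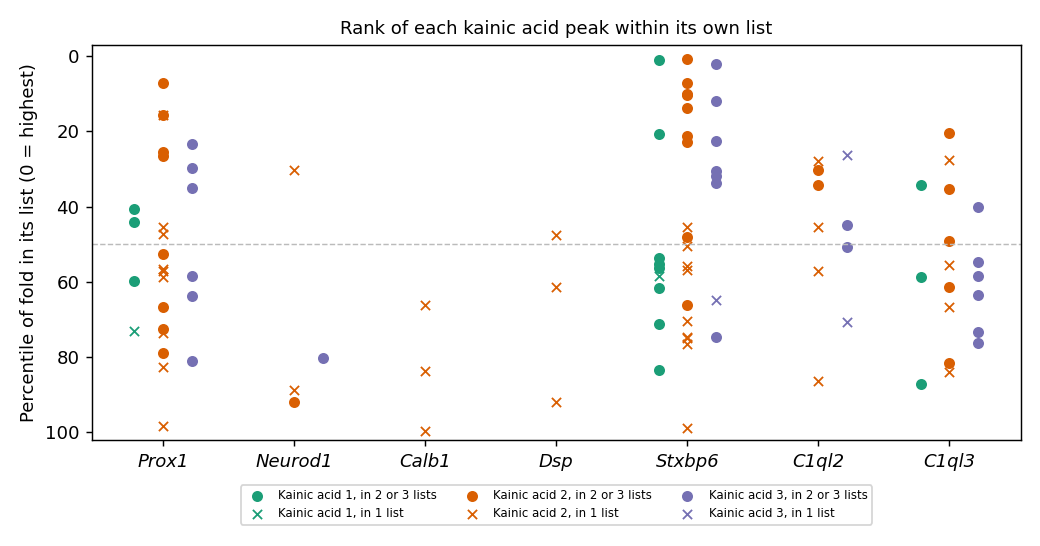
Percentile of the fold of each kainic acid peak within its own list (vertical axis, 0 at the top is the highest fold), by gene and library. Circles are peaks whose region had support from 2 or 3 kainic acid lists, and crosses are peaks of single lists. The 3 circles at the top of Stxbp6, at 1.14, 0.731 and 2.14, are the same site, and other peaks spread over most of the range.

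Density near the 7 genes was next compared with other marker lists in the same libraries. All lists were chosen with earlier results of these data known. The 7 windows had 1.50, 5.55 and 2.35 peaks per 100 kb in kainic acid replicates 1, 2 and 3. Windows of 10 markers of CA1 and CA3 pyramidal cells had 0.637, 4.54 and 2.21. The granule cell genes were higher in 3 of 3 libraries, by 0.672 ± 0.463 (SD, n = 3), and the two-sided exact sign-flip permutation test gave p = 0.25, the smallest value 3 pairs allow. The difference was 0.0262 at a reach of 100 kb and −0.0837 among peaks with −log10 q of at least 10, where its direction turned. With kainic acid lists cut to equal numbers of peaks it was 0.348 (exact sign-flip permutation p = 0.5).

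Windows of 9 interneuron markers had 0.260, 1.82 and 0.650 peaks per 100 kb, and those of 7 astrocyte markers had 0.493, 2.56 and 0.788. The granule cell genes were higher in 3 of 3 libraries against each list, by 2.22 ± 1.32 and 1.85 ± 1.02 (SD, n = 3). A list of 12 other genes enriched in granule cells went the other way, with 1.87, 6.91 and 3.90 peaks per 100 kb. The 7 genes were lower than these in 3 of 3 libraries, by −1.09 ± 0.635 (SD, n = 3). Against all protein-coding genes (0.739, 3.24 and 1.50) the difference was 1.31 ± 0.867 (SD, n = 3). With 6 such comparisons, each exact sign-flip permutation test stood at its smallest p of 0.25, also 0.25 after Benjamini-Hochberg adjustment, so none could pass 0.05. Gene length and the neighbouring genes differ between the lists, and their part in these differences was not tested. The higher density was not shared by all 7 genes. Neurod1, Calb1 and Dsp each had fewer peaks per 100 kb than all protein-coding genes in every kainic acid library. Among the pyramidal markers, Grik4 alone had 24 of the 45 kainic acid regions.

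In the median over genes, the 7 had 1.95 kainic acid regions per 100 kb, against 0.871 over all protein-coding genes. The difference of 1.08 was smaller than the SD of the median difference over the kainic acid libraries, 1.50. Both medians were 0 without kainic acid replicate 2 and without replicate 3. A region within 50 kb was present at 62.7% of protein-coding genes, the background for the counts that follow. Among the other granule cell genes, 11 of 12 had one, and the median was 2.81 regions per 100 kb. Fam163b was the most crowded (6.81) and Trpc6, a cation channel gene, had 0. Of the pyramidal markers 9 of 10 had one, from Grik4 (4.56), a kainate receptor subunit of CA3 cells, down to Iyd at 0. Of the interneuron markers it was 5 of 9, with Gad1, an enzyme of GABA synthesis, at 2.13 regions per 100 kb and Lhx6, Npy, Slc32a1 and Vip at 0. Of the astrocyte markers it was 4 of 7, with Aldh1l1 at 1.35 and Fgfr3, Gfap and Gjb6 at 0. The interneuron and astrocyte counts lie near the background share.

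Another list held the C1q-like family genes C1ql1 and C1ql4 and genes of synaptic partners of the family, Adgrb3, Grik2, Grik4 and Nrxn3. All 6 genes had a region within 50 kb (62.7% of protein-coding genes), and 5 of them had 1 in all 3 lists (42.5%). Their joined windows are long, 4117 kb in all. Regions per 100 kb ran from 0.759 at Nrxn3, a neurexin, to 4.56 at Grik4, which is also in the pyramidal list. C1ql3 (3.67) lay inside this range near its upper end, and C1ql2 (1.95) lay above the list's median of 1.49.

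**Figure D4:**
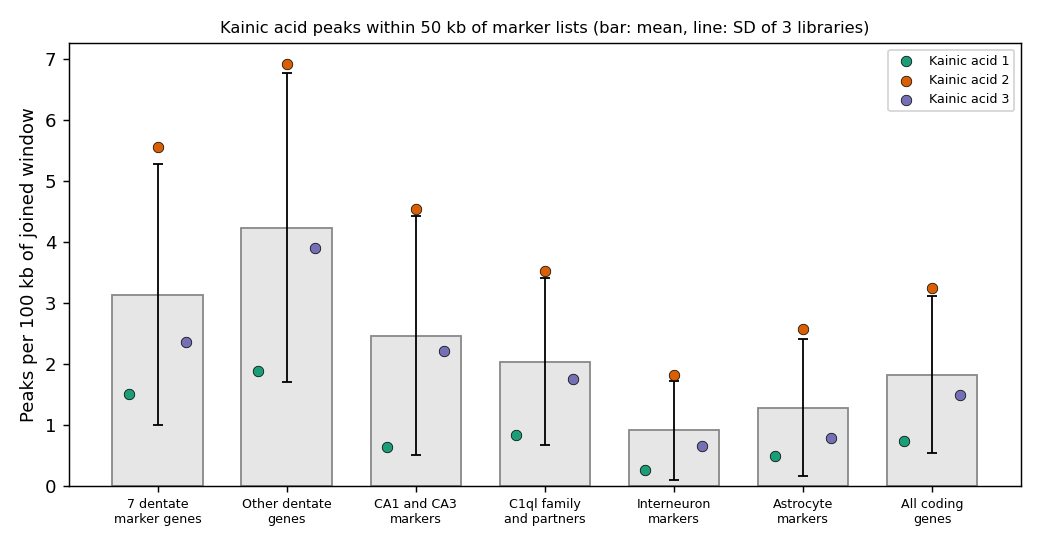
Kainic acid peaks per 100 kb of joined window (vertical axis) for the 7 granule cell genes, 5 other lists and all protein-coding genes. Bars are means, lines are SD over 3 libraries and points are the libraries. The spread between libraries, led by replicate 2, is wider than the differences between most lists, while within each library the 7 genes lie above all lists except the other granule cell genes.

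Gene windows with a like pattern over the 6 lists were found by the Euclidean distance of log2(peaks per 100 kb + 1) to the median of the 7 genes. The 3 nearest of all protein-coding genes were Orai2, Usp50 and 4931429L15Rik, at distances of 0.0290, 0.0325 and 0.0663. Each had 0, 7 and 3 peaks in kainic acid replicates 1, 2 and 3 and 0 in each saline list. The 7 genes themselves lay between 0.497 (C1ql2) and 2.17 (C1ql3) from their own median. The other 3 genes were picked as the nearest of all, so their smaller distances follow from that choice.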

How the data were processed

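The deposited data are 6 narrowPeak lists, 1 per library, none pooled. Trim Galore 0.6.4, Bowtie2 2.3.4.3, MACS2, deepTools 3.5.0 and the build mm10 (GRCm38) are named, per the submitters' processing notes. Peak names mention trimming and mapping quality 30. The caller's cutoff and control are not given in the sources used here. Per the file contents, the deposited fold (a linear ratio to the local background), the −log10 p and −log10 q and the score (10 times −log10 q) belong to 1 library each. None is scaled between libraries, so folds of different lists stand side by side as values. Comparisons rest on percentile ranks within a list, which depend on the length of that list.

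Peaks were read in Python 3.11.15 with pandas 2.3.3 and numpy 2.4.6, made 1-based, merged at 1 bp overlap and counted in windows of the gene span plus 50 kb. Reads over a summit were solved from the fold and −log10 p under the MACS2 Poisson relation. All 101 peaks in the windows had 1 whole-read solution within 0.001. That tolerance widened in proportion to −log10 p where this was large. Exact permutation tests and Clopper-Pearson intervals (95%, SciPy 1.17.1) were used, and the code was tested on simulated data. Strand and starts came from the promoter table. The genes and lists were chosen with earlier results of these data known. All 7 genes are named. In other lists values are given only for genes with the most, the fewest or 0 regions per 100 kb. Single regions were described where they had the best mean rank of a gene or were in all 3 lists, and some others were picked after their values were seen. Alternatives covered reach, −log10 q, list length, list support, overlap and each library left out.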

Additional observations from a re-analysis of the deposited data

How the results depend on the processing

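The difference in log10 number of peaks between kainic acid and saline kept its direction in every alternative run, from 1.22 to 1.50 with one library left out. It was 0.790 under the −log10 q minimum of 10 and 1.05 for kainic acid lists of equal length, against 1.37 as reported. Its test could not pass 0.05 at this size. With the replicate block it was 1.37 (exact sign-flip permutation p = 0.25, the smallest that 3 pairs allow). Correlations of same-numbered libraries over regions (−0.165, −0.177 and −0.0491) cannot show pairing, since 2 saline lists are nearly empty. The labels give no shared source, so the numbers were not taken as pairs.

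The count of 24 kainic acid regions was 4 with −log10 q of at least 10, all at Stxbp6. It was 11 with equal numbers of kainic acid peaks, 10 in all 3 lists, 63 in any list, and 10 to 24 with one library left out. Genes with a region were then 1, 3, 3 and 7 of 7, against 36.1%, 46.3%, 42.5% and 78.0% of protein-coding genes, and 3 to 5 with one library left out. Regions per 100 kb, 2.26 as reported, were 0.376, 1.03, 0.940 and 5.92 in these 4 settings, 0.940 without kainic acid replicate 2 and 1.32 without replicate 3. The median over the 7 genes exceeded that over all protein-coding genes by 1.08, by 4.17 at a reach of 10 kb and by 3.49 for any list. The SD of the median difference over the kainic acid libraries was 1.50. Both medians were 0 with −log10 q of at least 10, equal numbers of peaks, all 3 lists, or without kainic acid replicate 2 or 3. The difference from pyramidal markers, 0.672 peaks per 100 kb, reversed to −0.0837 with −log10 q of at least 10. With equal numbers of kainic acid peaks the same difference was 0.348. It rests on peaks of single lists, so settings on merging and on list support were not run for it. The cause of these shifts was not tested, apart from fewer or more peaks entering by construction. Of 105 alternative counts for single genes, 30 moved by over 1.5 times or to or from 0, 22 to fewer and 8 to more. Of 29 percentile ranks, 6 moved beyond their spread. List length limits what the saline lists can show.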
